A study of Saccharomyces cerevisiae with 30 samples.

Results

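The comparison is that of the *pol1-1A mrc1-AQ cdc45-2A* triple mutant with the *mrc1-AQ cdc45-2A* double mutant strain, 40 minutes after release from a hydroxyurea (HU) block. It was chosen by the strain and time point in the labels, which gives 4 of the 30 TrAEL-seq libraries of the series, 2 replicates of each strain. Both strains carry the *mrc1-AQ* and *cdc45-2A* alleles and differ by *pol1-1A*. Cells of both were held in G1 with alpha factor, released into rich medium with 200 mM HU and sampled after the drug was washed away. The full series holds 24 libraries of 4 strains (these mutants, *pol1-1A* and the wild type) at the HU block, 20 and 40 minutes, and 6 spike-in libraries of asynchronous wild type cells. The point mutations cannot be read from this signal, so the genotypes rest on the labels.

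Rad53 is the checkpoint kinase that budding yeast activates when HU depletes nucleotides and replication forks stall. Mrc1 travels with the fork and passes the signal to Rad53, Cdc45 is part of the replicative helicase, and Pol1 is the catalytic subunit of DNA polymerase alpha, which primes DNA synthesis. The *mrc1-AQ*, *cdc45-2A* and *pol1-1A* alleles are used to remove contacts of these proteins with Rad53. TrAEL-seq ligates an adaptor to free 3′ DNA ends, which lie mostly at the leading strand of forks, so a peak in the signal marks where forks were in a population of cells and a flat, low stretch marks DNA with few forks at that time.

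The triple mutant libraries held 8363396 and 7813785 mapped reads, against 7442844 and 9728813 in the double mutant libraries. The windows of the deposited table held 96.3% and 92.6% of the reads in the triple mutant and 96.3% and 95.2% in the double mutant. The signal is given as reads normalized to all mapped reads (RPM). Replicate 1 of both strains came from one pool of libraries and replicate 2 from another, with different adaptors (6 and 8 in the triple mutant, 5 and 7 in the double mutant), so strain and adaptor cannot be told apart. The labels do not say whether replicates were separate cultures, and p-values measure only the spread between libraries.

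The signal of the triple mutant was more concentrated than that of the double mutant, with taller peaks and less signal in the low parts of the genome. The 10% of 1 kb windows with the most signal held 30.8% and 30.0% of the signal in the triple mutant, against 25.0% and 25.7% in the double mutant. The ratio was 1.20, and the groups did not overlap (exact permutation test, two-sided, p = 0.33, the smallest that 2 against 2 libraries can give). In the spike-in libraries of the same pools, where cells of all cycle stages are mixed, this share was 14.8% and 17.3%, at a much lower depth of 631057 and 317539 reads. The median window had 56.0 and 53.2 RPM in triple mutant libraries, against 69.9 and 66.2 RPM in double mutant libraries. At the 25th percentile the values were 20.1 and 17.8 RPM in triple mutant libraries and 30.5 and 27.3 RPM in double mutant libraries, a ratio of 0.65. At the 75th percentile they overlapped, with 126.9 and 126.7 RPM in triple mutant libraries and 125.5 and 127.6 RPM in double mutant libraries. At the 99th percentile the order was turned round, with 312 and 285 RPM in triple mutant libraries against 242 and 249 RPM in double mutant libraries. The single highest window did not follow this order, at 424 and 359 RPM in triple mutant libraries and 443 and 421 RPM in double mutant libraries.

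**Figure D1:**
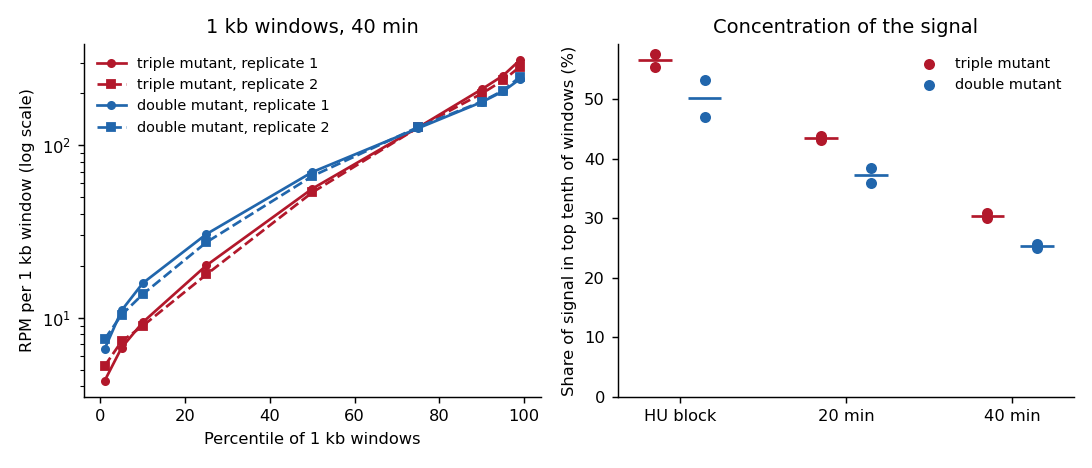
Left, RPM per 1 kb window (log scale) at percentiles 1 to 99 of the 11377 windows for the 4 libraries at 40 minutes. Right, share of the signal in the top 10% of windows at each time, with points for libraries and lines for means of 2 libraries. The triple mutant curves lie below the double mutant curves up to the median and above them from the 90th percentile, and the triple mutant share is the higher one at each time.

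The same order of the strains was present at the earlier times. The top 10% of windows held 55.4% and 57.7% of the signal in the triple mutant in the HU block, against 47.0% and 53.3% in the double mutant. At 20 minutes it held 43.2% and 43.9% in the triple mutant and 35.9% and 38.5% in the double mutant. The triple mutant was higher in 6 of 6 pools. These are 3 times of 2 replicates, and the times of a replicate do not count as independent repeats. The order of the strains was thus present before release, and no test of a change in it over time was made on this value.

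Single windows were tested with limma over all 24 libraries. Of 11377 windows, 2724 were higher in the triple mutant in both replicates and 7015 were lower in both. Of these, 11 were higher by over 1.5-fold in both replicates and 1943 were lower by over 1.5-fold in both. The median change was -0.24 on the log2 scale, and changes of single windows should be read against it. Only 1 window passed the test, higher in the triple mutant (limma with Benjamini-Hochberg adjustment, 0.00879% of the windows), while 682 had an unadjusted p under 0.05. The edgeR quasi-likelihood test on reads called 0 windows, with 707 at an unadjusted p under 0.05. With pool fitted as a replicate block, 3 windows were higher and 5 lower (0.0703% of windows). The median window's SD between replicates was 0.23 to 1.15 on the log2 scale over the 4 groups of the HU block, 0.14 to 0.48 at 20 minutes and 0.16 to 0.24 at 40 minutes, and the fit over all times shares this spread. In the fit of the 8 libraries at 40 minutes, 364 windows (3.2%) were higher and 824 (7.24%) lower in the triple mutant, 10.4% of those tested.

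Where these windows lay followed the distance from origins. An origin was taken as the midpoint of a pair of neighbouring peaks in the wild type HU block, which gave 140 origins. At 4 to 6 kb from the nearest origin, 486 of 513 windows were higher in the triple mutant in both replicates, with a median change of 0.41 on the log2 scale. At 6 to 8 kb, 448 of 510 were higher in both, with a median of 0.30. Beyond 12 kb the direction was the opposite. At 14 to 16 kb, 317 of 432 windows (73.4%) were lower in the triple mutant in both replicates, with a median of -0.53. Of the 6659 windows over 20 kb from any origin, 5000 (75.1%) were lower in both replicates, with a median of -0.38. Within 2 kb of an origin, 367 of 549 windows (66.8%) were lower in both, with a median of -0.21. Over all windows, 61.7% were lower in both and 23.9% higher in both, with a median of -0.24. The class within 2 kb of origins was thus near the genome as a whole.

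Summed over each class of distance, the band at 4 to 6 kb held 10.3% and 9.87% of the signal in the triple mutant, against 6.98% and 7.89% in the double mutant. The band at 6 to 8 kb held 12.9% and 12.4% in the triple mutant, against 9.82% and 10.6% in the double mutant. The DNA over 20 kb from origins held 38.6% and 39.1% in the triple mutant, against 44.4% and 43.5% in the double mutant. The groups did not overlap in any of these 3 classes, nor at 2 to 4, 8 to 10 and 12 to 14 kb. They overlapped in the remaining classes of the 11. At 14 to 16 kb they did so narrowly, with 3.3240% and 3.14% in the triple mutant and 3.99% and 3.3236% in the double mutant. The change of this summed share was -0.17 ± 0.33 (SE) on the log2 scale. Within 2 kb of origins they overlapped too, with 2.36% and 2.86% in the triple mutant and 2.37% and 3.13% in the double mutant. No class passed the test over 24 libraries (0% of 11), and the lowest adjusted p was 0.51, for a change of 0.44 ± 0.22 (SE) on the log2 scale at 4 to 6 kb. Among the 4 libraries alone, the bands at 4 to 6 kb and 6 to 8 kb both passed (limma, 18.2% of classes, adjusted p = 0.046).

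**Figure D2:**
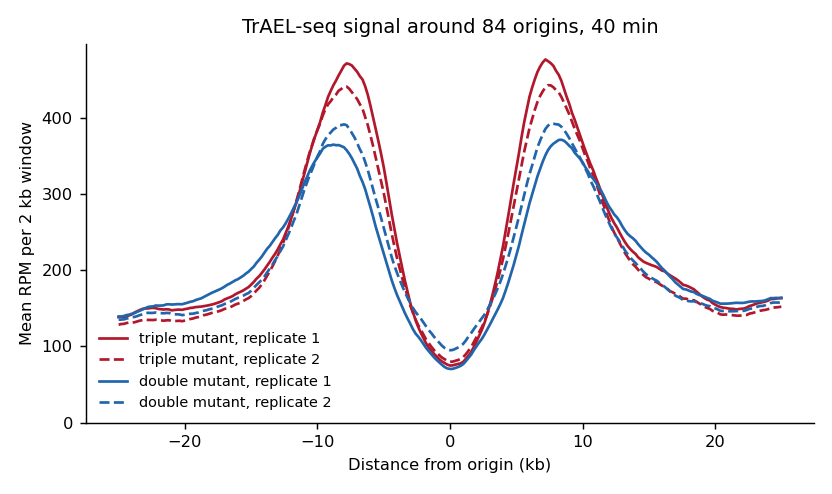
Mean signal in RPM per 2 kb window against distance from the origin in kb, over the 84 origins kept after the lowest 40% by wild type signal were left out, with 1 line for each library at 40 minutes. The triple mutant lines peak at 471 and 440 RPM and the double mutant lines at 368 and 391 RPM, while the lines lie close together around 20 kb.

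The peaks themselves were taller and narrower in the triple mutant. In the mean profile around 84 origins, the peak reached 471 and 440 RPM in triple mutant libraries, against 368 and 391 RPM in double mutant libraries. At 20 kb from the origin the profile was at 32.3% and 31.7% of its peak in the triple mutant, against 42.9% and 37.3% in the double mutant. Peaks were measured in 119 arms of 20 kb beside these origins. The median arm had a peak height of 542 and 527 RPM in triple mutant libraries, against 442 and 458 RPM in double mutant libraries. The height was higher in the triple mutant in both replicates in 116 of 119 arms and lower in both in 0, and the median change was 0.26 on the log2 scale, 0.34 in replicate 1 and 0.20 in replicate 2. The 24 libraries gave 17 arms with a higher peak and 0 with a lower one (limma, 14.3% of arms, adjusted p under the threshold of 0.05). With pool fitted as a replicate block 49 arms were higher (41.2%), and in the 8 libraries at 40 minutes 82 were (68.9%). Leaving out single libraries left 0 or 1 arm called, with a median change of 0.23 to 0.31, where the remaining library of a group is assumed to vary like the other groups and the median SE was 0.17, beside 0.14 with all libraries. Scaling to the reads inside the windows left 0, with a median change of 0.28.

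The arm with the lowest p lay left of the origin at 485000 on chromosome VII (R64), between *BRP1* and *YGL006W-A*. Its peak had 460 and 474 RPM in triple mutant libraries, against 315 and 319 RPM in double mutant libraries, a change of 0.56 ± 0.14 (SE) on the log2 scale (limma, adjusted p = 0.0067). The second lay right of the origin at 231700 on chromosome XII, between *NFG1* and *TRX1*, which encodes a thioredoxin. Its peak had 671 and 541 RPM in triple mutant libraries, against 453 and 414 RPM in double mutant libraries (0.47 ± 0.14, adjusted p = 0.034). In both arms the lowest triple mutant library lay above the highest double mutant library, as in 112 of all 119 arms. The height changes named here and below all had the same SE. The fit shared it between arms, so it is not the spread of a single arm.

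Next was the left arm of ARS1019, on chromosome X between *JJJ3* and *YJR098C*. The peak had 675 and 610 RPM in triple mutant libraries, against 469 and 471 RPM in double mutant libraries (0.45 ± 0.14, limma, adjusted p = 0.041). The right arm of ARS1019 had 589 and 553 RPM in triple mutant libraries and 423 and 482 RPM in double mutant libraries (adjusted p = 0.057). At ARS1018, on the same chromosome, the left arm had 572 and 573 RPM in triple mutant libraries, against 377 and 472 RPM in double mutant libraries (adjusted p = 0.041). Its right arm averaged 510 RPM in triple mutant libraries and 406 RPM in double mutant libraries (adjusted p = 0.065). All 4 arms of these neighbouring origins had higher peaks in both triple mutant libraries than in either double mutant library. This was so in 112 of all 119 arms and is not particular to these origins. Of the 4 arms, 2 passed the test, beside 17 of all 119.

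**Figure D3:**
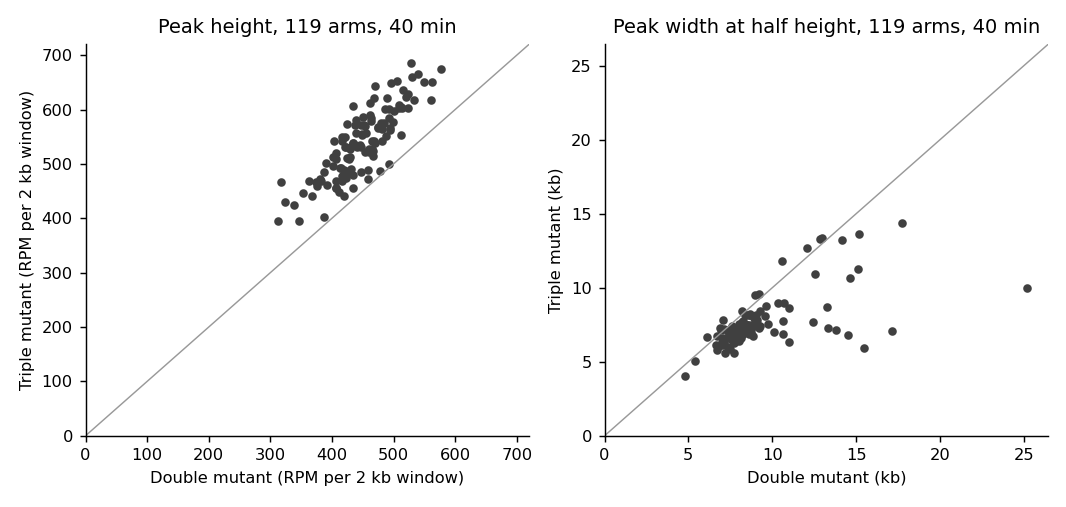
Peak height in RPM per 2 kb window (left) and peak width at mid-height in kb (right) of 119 origin arms at 40 minutes, triple mutant on the vertical and double mutant on the horizontal axis, each point the mean of 2 libraries and the line marking equal values. Nearly all heights lie above the line, and most widths lie below it, with a tail of arms that are over 10 kb wide in the double mutant.

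The width of a peak at mid-height was 7235 and 7294 bp in the median arm of the triple mutant, against 8492 and 8034 bp in the double mutant. It was smaller in the triple mutant in both replicates in 97 of 119 arms and larger in both in 11, with a median change of -0.20 on the log2 scale. The test called 9 arms narrower and 0 wider (limma, 7.56% of arms). Leaving out single libraries gave 6 to 13 arms. Narrower arms were also present before release. In the HU block 30 arms were called narrower in the triple mutant (25.2%) and 3 wider (2.52%), with a width in the median arm of 4294 and 4372 bp in the triple mutant, against 5784 and 5493 bp in the double mutant. The median change per arm was -0.06 on the log2 scale in the HU block. The arm left of the origin at 167200 on chromosome XV, between *ATG34* and *ATG19*, genes of receptors of selective autophagy, had a width of 6797 and 7408 bp in the triple mutant, against 17209 and 17036 bp in the double mutant (-1.27 ± 0.10, adjusted p = 1.2e-07). The arm right of the origin at 815200 on chromosome XIII, in *RCE1*, which encodes a protease of prenylated proteins, had 7090 and 7215 bp in the triple mutant, against 13673 and 13936 bp in the double mutant (-0.95 ± 0.10, adjusted p = 2.1e-06). The arm right of the origin at 215000 on chromosome IX, in *RCI37*, had 7361 and 12571 bp in the triple mutant, against 25382 and 25023 bp in the double mutant (-1.39 ± 0.17, adjusted p = 1.5e-05). Width was followed outward until the signal fell to the mid-height of the peak, also past the end of the arm, so widths over 10 kb include signal beside the peak that stayed above mid-height. The 3 arms with the lowest p among those that were wider had changes of 0.08 to 0.14 and did not pass the test (adjusted p of 0.38 or more).

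Over the whole genome, 489 and 483 peaks were found in the triple mutant, against 465 and 479 in the double mutant, a ratio of 1.03. Their median width was 6169 and 6153 bp in the triple mutant, against 7269 and 6715 bp in the double mutant. Their median prominence was 408 and 377 RPM in triple mutant libraries, against 323 and 311 RPM in double mutant libraries. None of these 3 measures overlapped between the groups (exact permutation test, two-sided, p = 0.33 for each, the smallest possible). With a prominence of 2 times the mean window required, the number of peaks was 325 and 312 in the triple mutant, against 239 and 236 in the double mutant, a ratio of 1.34.

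Between the 2 forks of an origin the signal was low in both strains. The signal at the origin, relative to the peaks on either side, was 8.13% and 10.6% in the median origin of the triple mutant, against 11.8% and 16.5% in the double mutant. It was lower in the triple mutant in both replicates at 47 of 47 origins with both arms, with a median change of -0.59 on the log2 scale. The 24 libraries called 0 origins (limma, 26 at an unadjusted p under 0.05, 0% called), while 42 of 47 (89.4%) were called lower once pool was fitted as a replicate block. The 4 libraries alone and the 8 libraries at 40 minutes both called 0, with 19 and 2 origins at an unadjusted p under 0.05. With the lone library assumed to vary like the other groups, 33 were called lower without replicate 1 of the double mutant, with a median change of -0.83, and 0 without replicate 2 of the double mutant, with a median of -0.34. The signal at the origin itself was 45.1 and 56.2 RPM in triple mutant libraries, against 53.4 and 75.2 RPM in double mutant libraries. The groups overlapped, and the ratio within pools was 0.84 and 0.75, lower in the triple mutant in both replicates.

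The signal in gaps between neighbouring origins was measured in the central part of 96 gaps of 30 kb or more. The median gap had 44.9 and 44.6 RPM per kb in the triple mutant, against 57.3 and 51.4 RPM per kb in the double mutant. The triple mutant was lower in both replicates in 82 of 96 gaps and higher in both in 8, with a median change of -0.24 on the log2 scale, the same as the median over all windows. No gap passed the test (limma, 0% of gaps, 1 at an unadjusted p under 0.05). By length, the median change was -0.40 in 27 gaps of 30 to 50 kb, -0.27 in 32 gaps of 50 to 80 kb, -0.14 in 20 gaps of 80 to 120 kb and -0.20 in 17 longer gaps. The gap with the lowest p lay between the origins at 132200 and 224800 on chromosome III, with 34.3 and 33.1 RPM per kb in the triple mutant, against 58.1 and 58.1 RPM per kb in the double mutant (-0.77 ± 0.26, adjusted p = 0.96). This gap holds the site at 165700 described below, which had a pair of peaks in the wild type HU block. Next were the gaps from 373500 to 412600 on chromosome XII, with 28.9 and 23.3 RPM per kb in the triple mutant and 59.7 and 34.9 in the double mutant, and from 137100 to 263200 on chromosome XIII, with 54.7 and 47.5 RPM per kb in the triple mutant and 66.7 and 60.3 in the double mutant. The higher gap with the lowest p lay from 408000 to 462400 on chromosome IV, with 124 and 102 RPM per kb in the triple mutant, against 88.4 and 97.5 in the double mutant. The gaps from 611100 to 649200 on chromosome XIII and from 36100 to 113900 on chromosome XV followed, with changes of 0.22 and 0.15.

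By chromosome, the shares of the signal differed little. Chromosome III had the largest change, with 2.74% and 2.55% of the signal in the triple mutant, against 2.98% and 2.89% in the double mutant (-0.15 ± 0.05 on the log2 scale, SE). Chromosome XIV had 5.02% and 5.08% in the triple mutant, against 5.38% and 5.34% in the double mutant (-0.09 ± 0.05). Chromosome XIII had 8.86% and 8.75% in the triple mutant, against 8.55% and 8.47% in the double mutant (0.05 ± 0.02). The groups did not overlap on 10 chromosomes, of which 6 were higher in the triple mutant and 4 lower, and overlapped on 6. No chromosome passed the test over 24 libraries (limma, 0% of 16, adjusted p = 0.11 for both III and XIII). In the 8 libraries at 40 minutes chromosome III passed (adjusted p = 0.018), and among the 4 libraries alone chromosome XIV did (adjusted p = 0.021), 1 of 16 or 6.25% in each fit. The changes of the other 13 chromosomes lay between -0.05 and 0.05. The concentration of the signal was not tied to single chromosomes, as the share of the top 10% of a chromosome's own windows was higher in both triple mutant libraries on all 16 chromosomes, by 1.14 to 1.25 times.

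**Figure D4:**
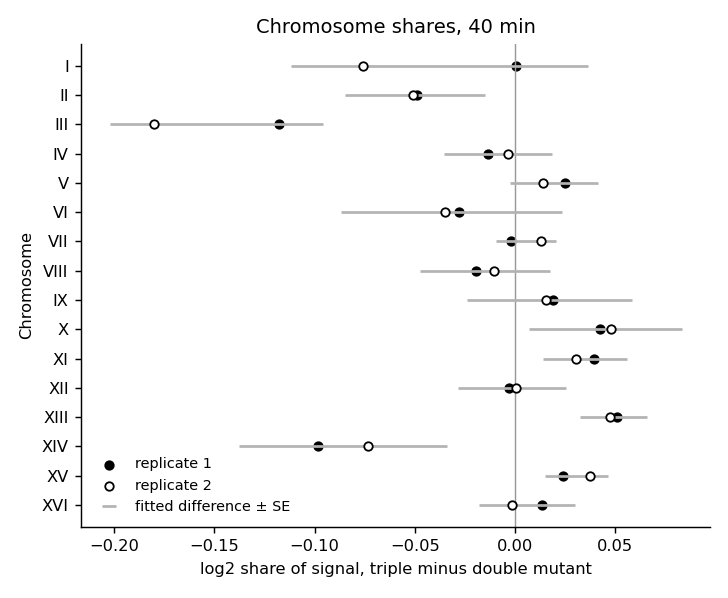
Difference in log2 share of the signal, triple minus double mutant, for the 16 chromosomes at 40 minutes, with a point for each replicate and a grey bar for the fitted difference ± SE. Chromosomes III and XIV lie to the left in both replicates, and the others lie within 0.08 of 0.

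The median window of chromosome III was lower both around 1 site and outside it. The median change over its 299 windows was -0.48 on the log2 scale, the lowest of the 16 chromosomes, beside -0.35 to -0.14 on the others. It was -0.76 in the 36 windows within 20 kb of the site and -0.42 in the other 263. In the 8 libraries at 40 minutes, 63 of the 299 windows were called lower and 9 higher. Over all windows, 7.24% were called lower and 3.2% higher. Within 20 kb of the site 17 of 36 windows were called lower and 0 higher. Outside it 46 of 263 were called lower and 9 higher. Of the 5 windows with the lowest p among those lower in the triple mutant, all lay between 159001 and 169000 on this chromosome (R64), and none passed the test over 24 libraries (limma, adjusted p of 0.30 to 0.35). All 5 passed in the 8 libraries at 40 minutes (limma, adjusted p of 0.0056 or less). These 8 are among the 24 libraries by which the 5 windows were chosen, so this is no separate support. The window from 167001 to 168000, in *RHB1*, which encodes a small GTPase of the Rheb family, had 28.3 and 38.1 RPM in triple mutant libraries, against 82.0 and 89.7 RPM in double mutant libraries (-1.36 ± 0.28, SE). The window from 159001 to 160000, in *YCR023C*, had 268 and 240 RPM in triple mutant libraries, against 443 and 421 RPM in double mutant libraries (-0.77 ± 0.18), and was the highest of the genome in the double mutant. The other 3 lay in *NPP1*, which encodes a nucleotide pyrophosphatase, and at the tRNA gene *YNCC0010C*. In the wild type HU block 2 peaks flanked 165700, and the site was not among the 140 origins by the rule used.

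The 10 kb around this site had 886 and 792 RPM in triple mutant libraries at 40 minutes, against 1343 and 1402 RPM in double mutant libraries. In the HU block there were 2512 and 2330 RPM in triple mutant libraries, against 4380 and 4536 RPM in double mutant libraries, and at 20 minutes 1866 and 1688 RPM in triple mutant libraries, against 3088 and 3165 RPM in double mutant libraries. The ratio was 0.54, 0.57 and 0.61 at the HU block, 20 and 40 minutes, so the lower signal was present before release. Wild type libraries had 1683 and 1950 RPM there in the HU block, so the double mutant was above and the triple mutant between. In the 20 kb around it at 40 minutes the change was -0.66 and -0.81 on the log2 scale in the replicates, whereas the 140 origins lay between -0.04 and 0.38 by their mean change. Without the 20 kb on either side of the site, the share of chromosome III was still lower in both replicates, with changes of -0.02 and -0.09 and a mean of -0.05 (limma, adjusted p = 0.86), a setting chosen after the data were seen. This site was named after its values were seen, and the difference between it and the origins was not tested.

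**Figure D5:**
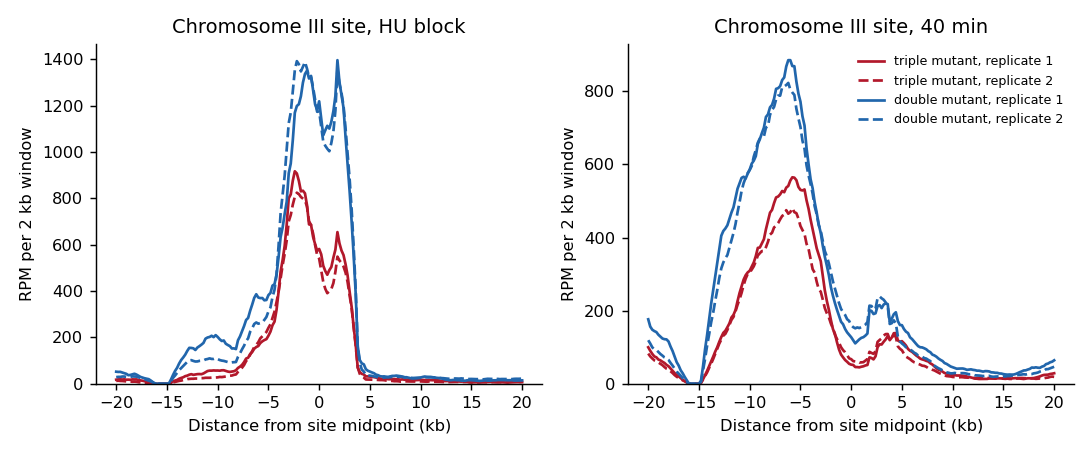
Signal in RPM per 2 kb window against distance in kb from the midpoint of the chromosome III site, in the HU block (left) and at 40 minutes (right), with 1 line for each library. The triple mutant lines lie below the double mutant lines at both times, and the stretch at 0 near 15 kb to the left is filtered sequence.

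Among the windows higher in the triple mutant, the 5 with the lowest p lay 3700 to 5500 bp from an origin. The window from 313001 to 314000 on chromosome XV, in *TOP1*, which encodes DNA topoisomerase I, had 233 and 216 RPM in triple mutant libraries, against 95.1 and 128 RPM in double mutant libraries (1.02 ± 0.17, limma, adjusted p = 0.037). The wild type had 198.6 and 222.9 RPM in this window. The window from 305001 to 306000, in *PLB3*, a phospholipase gene on the other side of the same origin at 309400, had 159 and 171 RPM in triple mutant libraries, against 79.1 and 103 RPM in double mutant libraries (0.86 ± 0.18, adjusted p = 0.30). Both sides of that origin were thus higher in both triple mutant libraries. The changes in the HU block were 0.02 in *TOP1* and -0.06 in *PLB3*. The others lay in *ECM38* on chromosome XII, *KCS1* on chromosome IV and *REC8*, a gene of meiotic cohesin, on chromosome XVI, with changes of 0.80, 0.74 and 0.72, none of which passed the test.

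Chromosome ends were lower in the triple mutant than the genome as a whole. The median window within 30 kb of an end had 37.5 and 36.3 RPM in triple mutant libraries, against 63.3 and 61.7 RPM in double mutant libraries. The median change was -0.68 on the log2 scale over 654 windows, beside -0.24 over all windows, and -0.36 beside 0.00 after quantile normalization. Of these windows, 577 (88.2%) were lower in both replicates, beside 61.7% over all windows. Among the windows over 20 kb from any origin, 75.1% were lower in both, with a median change of -0.38. In the 8 libraries at 40 minutes 131 of the windows near ends were called lower and 2 higher, 20.0% lower beside 7.24% lower over all windows. Of 32 chromosome ends, with 3 to 30 windows each, 30 had less signal in the triple mutant in both replicates and 2 had more in both. The median change of these windows was -0.94 in the HU block, when the median over all windows was -0.63.

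Windows within 10 kb of a centromere, which replicate early in yeast, had a median of 135 and 125 RPM in triple mutant libraries, against 109 and 114 RPM in double mutant libraries, and a median change of 0.11 over 313 windows. In the 8 libraries at 40 minutes 20 of them were called higher (6.39%, beside 3.2% over all windows) and 25 lower (7.99%, beside 7.24%). Windows with a tRNA gene had a median change of -0.10 over 274 windows, which was 0.12 after quantile normalization, so its direction depends on the scaling. Windows within 5 kb of the 10 origins seen only in the HU block of the mutants had 139 and 141 RPM in triple mutant libraries. Double mutant libraries had 112 and 125 RPM there. The median change was 0.21 over these 103 windows. In the 8 libraries 9 of them were called higher (8.74%, beside 3.2% over all windows) and 0 lower (0%, beside 7.24%). Around the 140 wild type origins the same fit called 3 of 549 windows higher at 0 to 2 kb. At 2 to 4 kb it called 33 of 545 higher, and at 4 to 6 kb 155 of 513. It called 0, 0 and 2 lower in these classes, so such calls were not particular to the 10 origins.

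The same *pol1-1A* allele in otherwise wild type cells went with other values at 40 minutes. Peaks were broader in that background. The median arm was 14242 and 14466 bp wide in the wild type, against 8492 and 8034 bp in the double mutant. The measures below thus compare strains with peaks of unlike shape. The median change over all windows between *pol1-1A* and the wild type was 0.04, beside -0.24 between the triple and the double mutant. The median peak height of arms changed by -0.11 there, beside 0.26. The difference between these changes was tested in the same limma fit and passed in 1 of 119 arms (0.84%) for height, 9 of 119 (7.56%) for width and 0 of 11377 windows (0%). An unadjusted p under 0.05 was found in 53 arms (44.5%) for height, 18 (15.1%) for width and 679 windows (5.97%).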

How the data were processed

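The authors trimmed and mapped the reads (Trim Galore 0.6.5, Bowtie2 2.4.1 and genome build R64 are named in the submitters' processing notes), truncated each read to 1 nucleotide, left out sequence that is not single copy, and deposited signal as RPM in 60303 running windows of 2000 bp every 200 bp. All deposited values were whole multiples of 1 read (100% within 0.01 of a read), and the reads were split into 200 bp bins. Bins with no read in any library, 4.09%, were left out.

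Values were tested on log2(RPM + 1) with limma 3.58.1 in R 4.3.3, with 12 groups of 24 libraries and Benjamini-Hochberg adjustment, and edgeR 4.0.16 as an alternative. The pseudocount understates changes of low windows. Profiles were smoothed over 15 windows (order 2), peaks were at least 1 mean window value in prominence, and origins were midpoints of wild type HU block peaks 4 to 9 kb apart. Libraries of a pool share a time and a replicate number in the labels. Deviations of the 40 minute libraries from their group means correlated between strains at 0.16 to 0.73, so the replicate numbers were taken to pair the libraries.

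The window fit was tested on simulated counts. A first version with only small changes was called too rarely to check the fit, so larger changes were added. Changes of 8-fold were all recovered, those of 4-fold in part and those of 1.5-fold and 2-fold rarely, and a few unchanged windows were called. The named features were the 5 windows, 3 arms and 3 gaps with the lowest p in each direction that moved the same way in both replicates, all chromosomes, ARS1018 and ARS1019. Members and lists were chosen with earlier results of these data known. Gene names are from the RefSeq table of R64.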

Additional observations from a re-analysis of the deposited data

Results flagged for a closer look

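The difference in peak width, triple minus double mutant, differed between 40 minutes and the HU block in 29 of 119 arms, 22 of them with a more positive and 7 with a more negative value at 40 minutes (limma, a contrast of both differences). At 40 minutes it differed from the change between *pol1-1A* and the wild type in 9 arms for width and in 1 arm for height. Of the summary measures, 3 moved in opposite directions in the triple mutant and in *pol1-1A* in both replicates, and the difference was not tested on these values. Fitted for each feature, it passed in 0 of 96 gaps (0 at an unadjusted p under 0.05) and, for height, in the 1 arm above (53 of 119 at an unadjusted p under 0.05). The share of signal in the top 10% of windows was 1.23 and 1.17 times as high in the triple as in the double mutant, and 0.90 and 0.99 times as high in *pol1-1A* as in the wild type, a difference of 0.35 on the log2 scale. The median peak height was 1.23 and 1.15 times as high in the triple as in the double mutant, and 0.89 and 0.98 times as high in *pol1-1A* as in the wild type, a difference of 0.35. The signal in gaps was 0.78 and 0.87 times as high in the triple as in the double mutant, and 1.09 and 1.03 times as high in *pol1-1A* as in the wild type, a difference of -0.36.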

How the results depend on the processing

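The number of windows called, 1 over 24 libraries, was 2952 in the 4 libraries alone, 1188 in the 8 libraries at 40 minutes, 112 after quantile normalization (86 higher, 26 lower), 8 with pool fitted as a replicate block, and 0 with edgeR, with 2 kb windows and with scaling to the reads inside the windows. Leaving out single libraries gave 0 to 1. The median change over windows, -0.24, became 0.0049 after quantile normalization, which gives all libraries one distribution, was -0.22 with scaling inside the windows, and -0.25 to -0.23 without single libraries. Arms with a higher peak, 17, were 88 in the 4 libraries, 82 in the 8, 49 with the pool as a block, 1 of 205 with no origin left out, 0 with scaling inside the windows and 0 to 1 without single libraries. Narrower arms, 9, were 5 in the 4 libraries, 7 in the 8 and 17 of 205 with no origin left out. Origins with a lower valley, 0, were 42 with the pool as a block, 0 in the 4 and in the 8 libraries, and 0 to 33 without single libraries, where the median change was -0.83 to -0.34. The 4 libraries called 1 chromosome, 2 distance classes and 1 gap, and the 8 libraries called 1 chromosome. The ratio of peak numbers, 1.03, was 1.34 at the higher prominence. The cause of these changes was not tested. The fits of 4 and of 8 libraries hold no library of the earlier times. The windows of 500 bp held 2 or 3 bins of 200 bp by turns. With 2 libraries a group, the fit over 24 libraries misses most small changes of single windows.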
